A study of Homo sapiens with 4 samples.

Results

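HOX genes encode homeodomain transcription factors that give cells their position along the body axis. In humans they lie in 4 clusters, HOXA on chromosome 7, HOXB on chromosome 17, HOXC on chromosome 12 and HOXD on chromosome 2. The genes described here are all table entries whose symbol starts with HOXA, HOXB, HOXC or HOXD, antisense RNAs included, together with the noncoding RNAs HOTAIR, HOTAIRM1, HOTTIP, HAGLR and HAGLROS. They number 57 of the 39519 genes measured, of which 39 are coding and 18 noncoding. HOXA holds 17 of them, HOXB and HOXC hold 14 each, and HOXD holds 12.

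The cells were U2OS, an established human osteosarcoma line, and the RNA was total RNA depleted of ribosomal RNA. In the sh-PURB group (n = 2 libraries) a hairpin against PURB, a protein of the PUR family that binds purine-rich DNA and RNA strands, was induced with doxycycline at 5 µg/ml for 72 h. In the sh-NC group (n = 2 libraries) the cells carried the control hairpin and received DMSO for 72 h in place of doxycycline, so knockdown and drug cannot be told apart. One cell line was used, and nothing states that the libraries came from separate cultures or whether both sh-PURB libraries used 1 hairpin. The spread that the p-values rest on is that of these libraries alone and may be technical.

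HOX genes are numbered 1 to 13 by position in the cluster, and genes with one number in different clusters are paralogs, related by descent. Low numbers act towards the head and high numbers towards the tail and the ends of the limbs. The pattern is set early by retinoic acid and CDX factors, kept silent by Polycomb complexes and kept active by Trithorax complexes. HOTAIR, made from the HOXC cluster, was described in human fibroblasts as a partner of the Polycomb complex PRC2 and of the LSD1 complex that lowers HOXD genes at a distance. The series title joins PURB and HOTAIR in 1 complex, so the question asked of the clusters is how HOTAIR and its neighbours stood when PURB was lowered.

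PURB itself was at 2.46 and 2.69 TPM in sh-PURB, against 5.29 and 6.55 TPM in sh-NC. The groups did not overlap, with a difference of -0.95 on the log2(TPM + 1) scale (SE 0.17, limma adjusted p = 0.102). The test across all genes therefore did not call PURB, the gene that the hairpin targets. TPM is a share of all transcripts scaled per transcript length, and it says nothing of how many reads stand behind a value, so depth is unknown. A library had 13298 to 14207 genes at 1 TPM or more. Of the osteoblast and mesenchymal markers, 6 of 12 passed the level filter. Of these 6, 5 had a difference below 0 (median -0.26), beside 58.4% of all tested genes. SPP1, the secreted bone matrix protein osteopontin, fell to 6.59 and 5.80 TPM in sh-PURB, against 33.8 and 30.7 TPM in sh-NC (difference -2.21, SE 0.13, limma adjusted p = 0.0374). It was the only gene called in any list used here, and limma called 0 genes of any kind once any 1 of the 4 libraries was left out. VIM was at 298 and 320 TPM in sh-PURB and 340 and 342 TPM in sh-NC, and CDH2 was higher without overlap, at 12.9 and 14.6 TPM in sh-PURB and 11.5 and 10.9 TPM in sh-NC. SPARC was at 220 and 262 TPM in sh-PURB and 254 and 235 TPM in sh-NC, COL1A1 at 9.53 and 21.6 TPM and 13.6 and 39.7 TPM. RUNX2 was at 1.92 and 2.46 TPM in sh-PURB and 2.43 and 3.92 TPM in sh-NC, and the groups of all 3 genes overlapped. Among the untested markers, BGLAP was higher and ALPL lower without overlap, both at or below 0.239 TPM, and COL1A2 overlapped. SP7, IBSP and TWIST1, which mark committed bone or mesenchymal cells, were at 0 in at least 3 libraries. The 5 haematopoietic markers summed to 0.764 and 1.28 TPM in sh-PURB and to between 1.63 and 1.92 TPM in sh-NC, and the 4 endothelial markers to between 0.298 and 0.650 TPM and between 0.635 and 0.909 TPM. The 6 epithelial markers summed to between 196 and 207 TPM in sh-PURB and 191 and 220 TPM in sh-NC, nearly all of it the keratins KRT8 and KRT18. These lay on opposite sides, and the other epithelial markers overlapped. KRT8 was lower without overlap, at 86.2 and 89.6 TPM in sh-PURB and 115 and 101 TPM in sh-NC (limma adjusted p = 0.292). KRT18 was higher without overlap, at 114 and 99.1 TPM in sh-PURB and 98.1 and 84.2 TPM in sh-NC (limma adjusted p = 0.480). The 5 neural markers summed to between 32.9 and 43.3 TPM in sh-PURB and 34.2 and 35.8 TPM in sh-NC, but single markers lay on both sides. TUBB3 was at 19.3 and 21.2 TPM in sh-PURB and 13.3 and 12.3 TPM in sh-NC (limma adjusted p = 0.120), and RBFOX3 was also higher without overlap. NES was at 6.66 and 5.83 TPM in sh-PURB and 10.3 and 9.46 TPM in sh-NC (limma adjusted p = 0.166), and SOX2 was also lower without overlap. The part of these genes in any HOX difference was not tested.

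Promoter sequences are shown first, for HOXA-AS2 and HOXA11-AS. No promoter window was found for HOXA5 or HOTAIR. HOXA-AS2 had the largest difference of the tested HOX RNAs on the log2(TPM + 1) scale (-0.90, beside -0.86 for HOXA5). With a pseudocount of 0.1 that of HOXA5 was larger (-1.25, beside -1.13 for HOXA-AS2). The HOXA11-AS window shares 275 of its 300 bases with that of HOXA11 on the other strand. Both are given 5′ to 3′ as windows of 300 bases around a start annotated in RefSeq. They are RefSeq sequences of GRCh38.p14, HOXA-AS2 at chr7:27121669-27121968 on the plus strand and HOXA11-AS at chr7:27185158-27185457 on the plus strand. The GENCODE spans used for positions below start elsewhere, at 27107777 for HOXA-AS2 and 27184507 for HOXA11-AS. Neither window holds that start. Capitals mark matches to GGNGGNGGN or its complement, a purine repeat of the kind that PUR proteins bind in single-stranded form.
HOXA-AS2: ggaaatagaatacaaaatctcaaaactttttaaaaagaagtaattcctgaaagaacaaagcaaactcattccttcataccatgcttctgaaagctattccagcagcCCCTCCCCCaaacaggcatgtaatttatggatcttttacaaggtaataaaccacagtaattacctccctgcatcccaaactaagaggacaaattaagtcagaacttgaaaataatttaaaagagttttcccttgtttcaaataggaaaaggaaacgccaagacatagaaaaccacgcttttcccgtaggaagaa
HOXA11-AS: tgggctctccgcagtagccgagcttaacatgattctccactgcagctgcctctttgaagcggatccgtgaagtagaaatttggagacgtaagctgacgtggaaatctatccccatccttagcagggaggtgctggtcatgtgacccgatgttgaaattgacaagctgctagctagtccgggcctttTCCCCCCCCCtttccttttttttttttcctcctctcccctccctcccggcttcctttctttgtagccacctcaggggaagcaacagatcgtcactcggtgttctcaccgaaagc
The HOXA-AS2 window held 1 match and was 36% GC, and the HOXA11-AS window held 2 overlapping matches and was 52.7% GC. Promoter windows were found for 31 of the 57 genes, 42 windows in all, and 69.0% of them held the repeat on either strand, against 52.7% of all 35116 windows. A match of TGATNNAT, a site read by HOX proteins with their PBX partners, stood in 9.52% of the HOX windows and 7.40% of all windows. The ratio of observed to expected CpG, which is high in the CpG islands where Polycomb gathers, had a median of 0.77 in HOX windows and 0.58 in all windows, but was 0.32 for HOXA-AS2. These matches are descriptions of letters, and windows of neighbouring genes overlap. Most of the windows lay in HOXA and HOXD, so the shares do not cover the clusters evenly. Of the coding HOXB genes only HOXB1 had a window. In HOXC only HOXC4 and HOXC5 did, with the same window counted for both.

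The clusters also hold microRNA genes, and 3 of them encode miR-196, which was described to direct cleavage of Hoxb8 mRNA in mouse embryos. The mature forms are shown because HOXB8 and the miR-196 gene of the HOXB cluster were both measured, with the seed, bases 2 to 8, in capitals.
miR-196a-5p: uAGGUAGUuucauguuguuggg
miR-196b-5p: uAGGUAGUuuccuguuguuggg
Their seeds are the same, and they differ by A12C, counted from 1 at the 5′ end of miR-196a-5p. MIR196A1, which lies in the HOXB cluster (chromosome 17, 48632490 to 48632559, minus strand, GRCh38), was at 2.60 and 5.19 TPM in sh-PURB, against 19.8 and 6.01 TPM in sh-NC. The groups did not overlap, with a difference of -1.35 on the log2(TPM + 1) scale (SE 0.57, limma adjusted p = 0.359), and 1 sh-NC library stood far above the others. MIR196A2, MIR196B, MIR10A, MIR10B, MIR615, MIR3185 and MIR7704 were listed at 0 in every library. HOXB8 was at 0.715 and 0.160 TPM in sh-PURB, against 0.158 and 0.111 TPM in sh-NC. Its groups did not overlap, but 1 sh-PURB library carried nearly all of the difference, and the gene was too low to be tested. A total RNA library does not measure the mature microRNA, and a short hairpin can be estimated poorly. MIR196A1 also lies inside the span of HOXB7 on the same strand (48607227 to 48633572), outside its exons. It lies inside the span of HOXB-AS4 on the opposite strand (48628675 to 48634932). Unspliced RNA of those genes cannot be told apart from it.

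The HOX RNAs of U2OS cells were low and spread over all 4 clusters. Of the 57, 56 were above 0 in some library, HAGLROS was listed at 0 in all, and 27 averaged at least 1 TPM over the 4 libraries. Together they summed to 73.4 and 78.9 TPM in sh-PURB, against 88.2 and 98.4 TPM in sh-NC, and the groups did not overlap. HOTAIRM1 had the highest mean over the 4 libraries (8.66 TPM), followed by HOXB7 (5.4), HOXD8 (5.26), HOXA9 (4.55) and HOXB6 (4.52), and each of the last 4 overlapped its neighbour in that order. HOTAIRM1 lay above all of them in every library. At the other end, HOXB1 and HOXC12 were above 0 in only 1 library each, and HOXD1, HOXD12 and HOXD13 never exceeded 0.118 TPM.

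**Figure D1:**
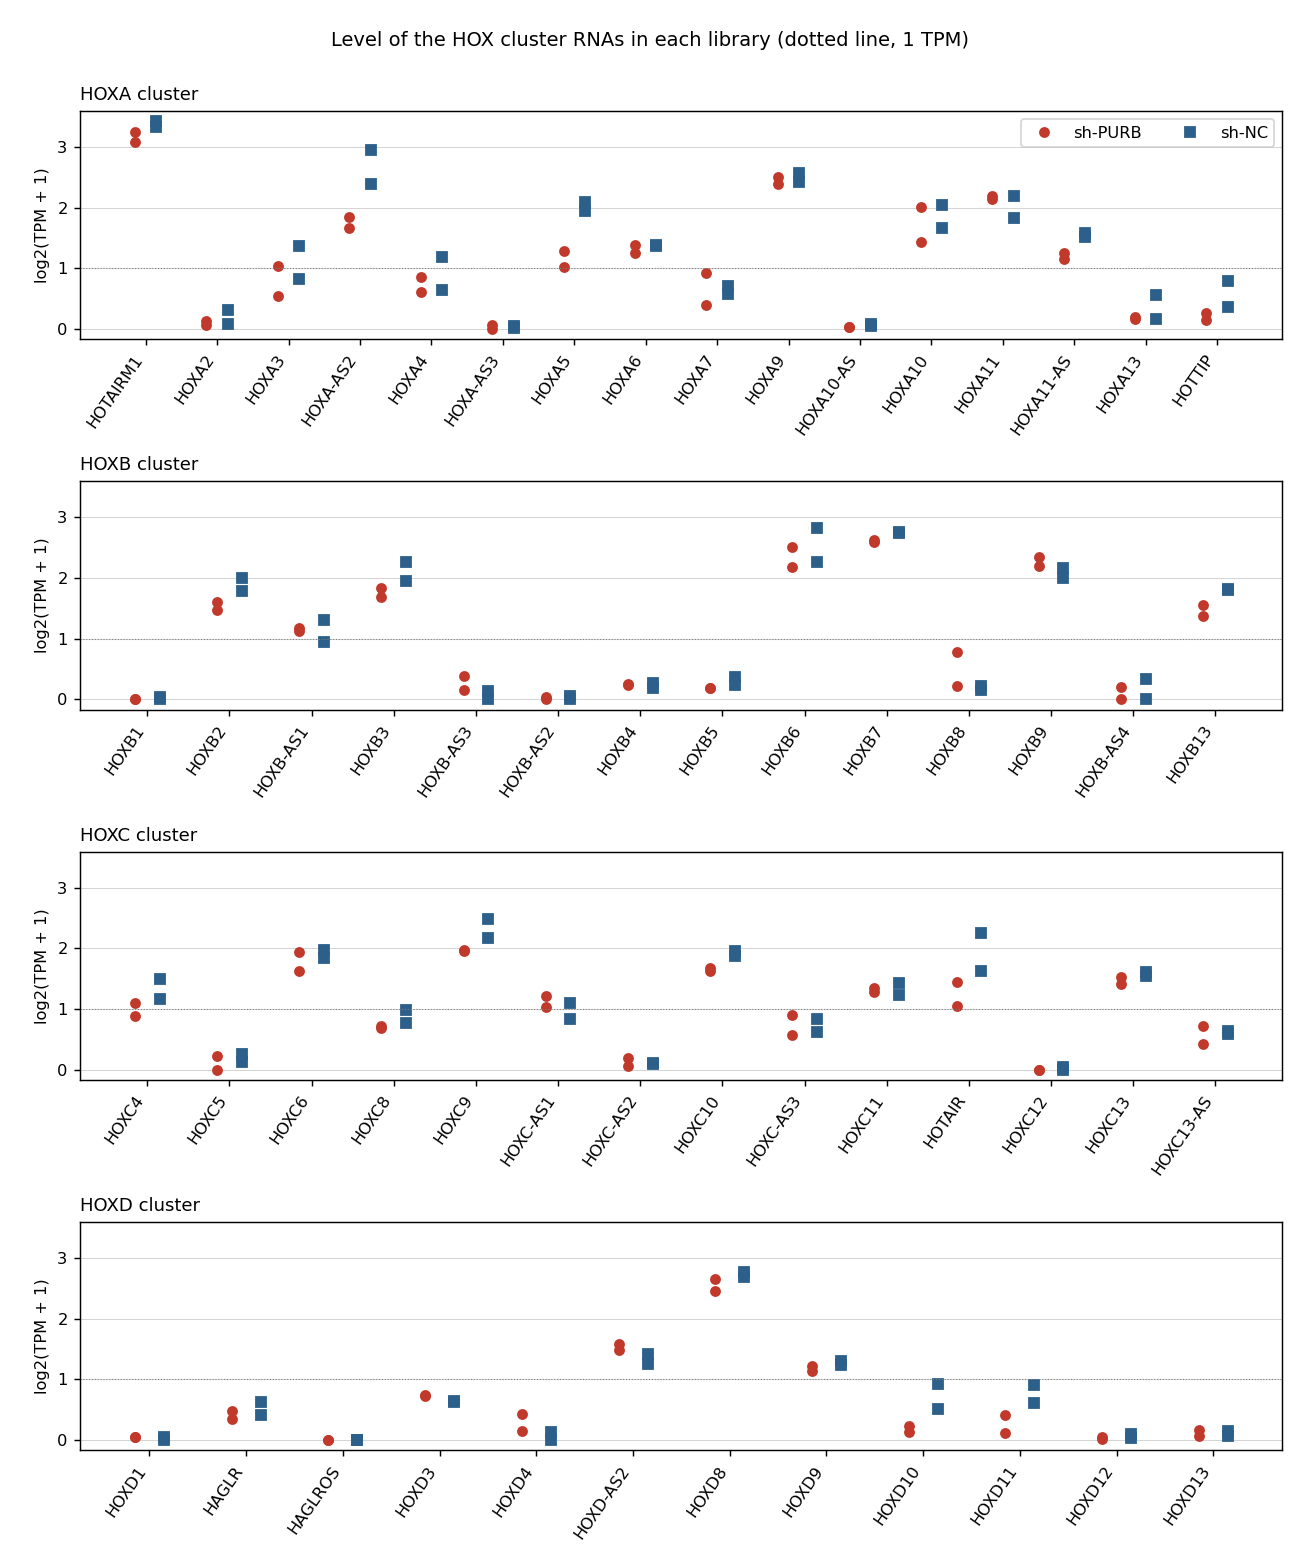
Level of 56 of the 57 HOX cluster RNAs on the log2(TPM + 1) scale, by cluster, with sh-PURB libraries as red circles and sh-NC libraries as blue squares (2 each). Most RNAs lie under 3 on this scale, and HOXA-AS2, HOXA5 and HOTAIR show the widest gaps between the groups.

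By paralog number the highest summed level was that of paralog 9, the only number at which a gene of every cluster averaged above 1 TPM. The 4 genes of paralog 9 summed to 12.9 and 12.1 TPM in sh-PURB and to 12.2 and 14.4 TPM in sh-NC, so the groups overlapped. Paralog 6 followed with 8.13 and 7.93 TPM in sh-PURB and 10.2 and 8.32 TPM in sh-NC, mostly from HOXB6. Paralog 12, a number that only HOXC and HOXD hold, was at most 0.0935 TPM in any library. Among the paralog numbers that averaged above 1 TPM, paralog 5 showed the largest relative gap, with 1.17 and 1.74 TPM in sh-PURB against 3.11 and 3.71 TPM in sh-NC, and HOXA5 made up most of it.

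**Figure D2:**
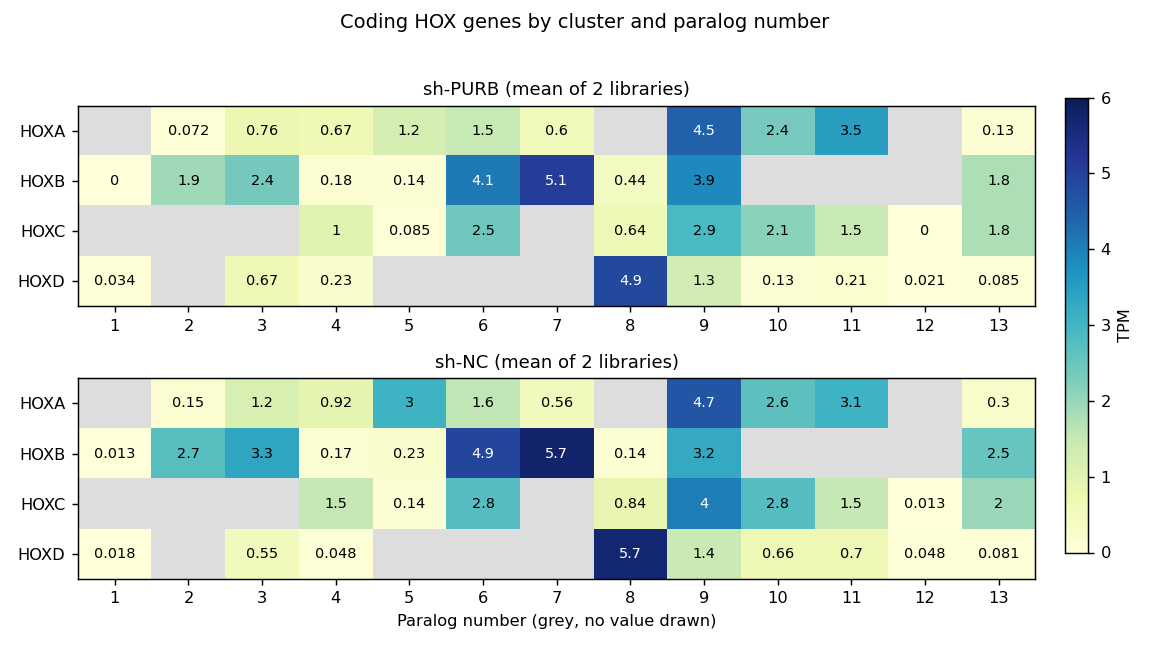
Mean TPM of 38 coding HOX genes by cluster (rows) and paralog number (columns), sh-PURB above and sh-NC below, each the mean of 2 libraries. The column of paralog 9 is filled in all 4 clusters, and the cell of HOXA5 is 1.23 TPM in sh-PURB and 3.05 TPM in sh-NC.

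Set against sh-NC, no HOX RNA passed the test across all genes, but the HOX RNAs leaned to lower values in sh-PURB. Of the 57, 28 passed the level filter (at least 1 TPM in at least 2 libraries) and were tested with limma among 14269 genes, while 29 were too low. At an adjusted p under 0.05 limma called 0 of the 28, where 0.287% of all tested genes were called, 0.203% on the lower side and 0.0841% on the higher side. HOXA5 and HOXA-AS2, both lower, were the 2 with an unadjusted p under 0.05, which is 7.14% of the 28 beside 9.53% of all tested genes on the lower side. The differences were below 0 for 22 of 28, or 78.6% beside 58.4% of all tested genes, with a median of -0.17 beside -0.06 for all tested genes. The groups did not overlap for 15 of the 28 on the lower side (53.6% beside 29.3% of all tested genes) and for 2 on the higher side, HOXB9 and HOXD-AS2 (18.6% of all tested genes). Over the 56 RNAs with any signal, tested or not, 21 were lower and 6 higher without overlap, beside 24.1% and 15.3% of all genes with any signal.

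The summed level, in TPM as given, stood lower without overlap in each cluster, narrowly so in HOXD (10.5 TPM in sh-PURB replicate 2, 10.7 TPM in sh-NC replicate 2). The other scalings described below were not applied to any sum. They raised the median difference of all tested genes from -0.06 to between -0.01 and 0.08. HOXA summed to 27.4 and 30.1 TPM in sh-PURB, against 33.1 and 41 TPM in sh-NC, and HOXB to 21.9 and 20.7 TPM in sh-PURB, against 24.7 and 24.1 TPM in sh-NC. HOXC summed to 15.1 and 17.6 TPM in sh-PURB, against 18.9 and 22.6 TPM in sh-NC, and HOXD to 9 and 10.5 TPM in sh-PURB, against 11.5 and 10.7 TPM in sh-NC. By position in the cluster, 3 of 4 tested genes of paralogs 1 to 3, 7 of 7 of paralogs 4 to 8 and 8 of 10 of paralogs 9 to 13 lay below 0, with medians of -0.33, -0.18 and -0.09. Of all tested genes 58.4% lay below 0, with a median of -0.06. The order of these medians rests on few genes and was not tested.

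Genes of a cluster share exons and surroundings, so these counts are not of independent genes. Scaling mattered for the counts: between 17 and 21 of the 28 lay below 0 after rescaling by median ratios, quantile normalization, recomputing TPM without the most abundant genes, or keeping protein-coding genes and long noncoding RNAs alone. The median of all tested genes lay between -0.01 and 0.08 in those scalings, and the HOX median minus the median of all genes lay between -0.13 and -0.10 in them. Without sh-PURB replicate 1, 18 of the 28 lay below 0 and the median was -0.09. In bulk RNA, fewer cells making a transcript and less transcript per cell cannot be told apart.

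**Figure D3:**
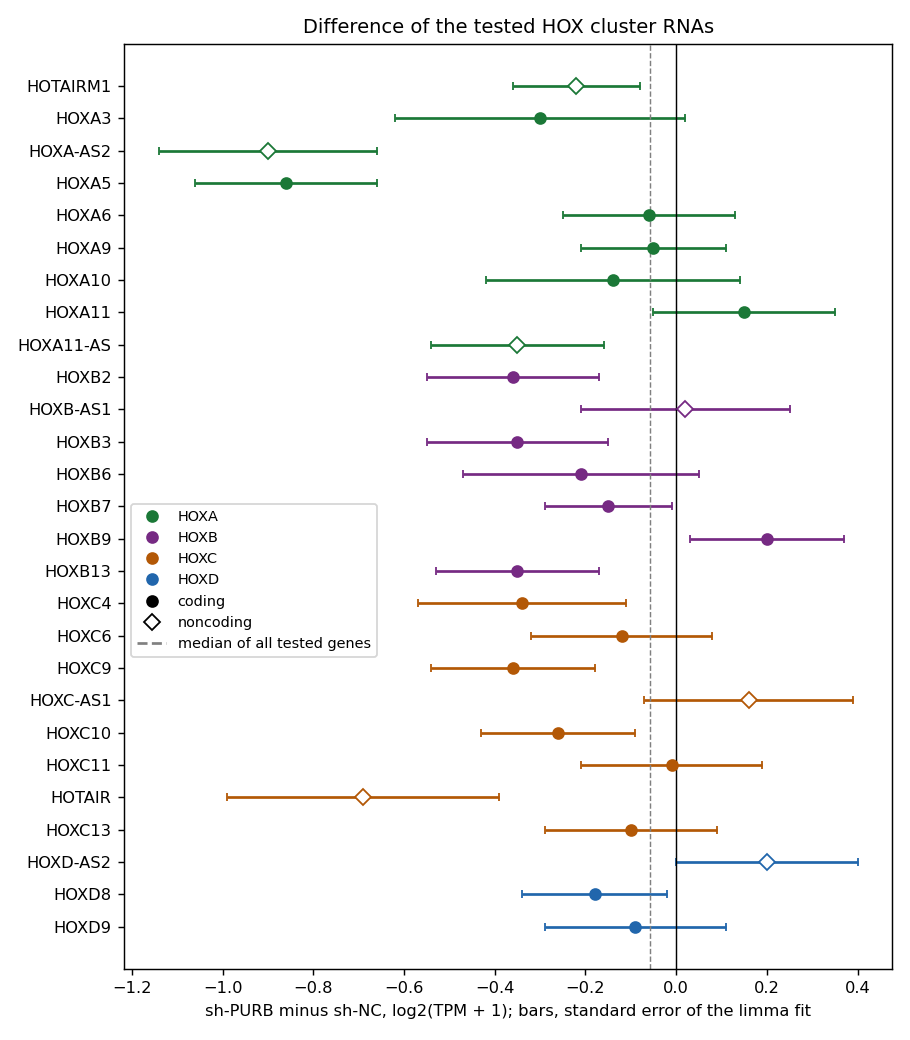
Difference of sh-PURB minus sh-NC on the log2(TPM + 1) scale for 27 of the 28 tested HOX RNAs, coloured by cluster, with filled circles for coding and open diamonds for noncoding RNAs; bars are the standard error of the limma fit. HOXA-AS2, HOXA5 and HOTAIR lie farthest left, and the dashed line is the median of all tested genes (-0.06).

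In the HOXA cluster 5 of the 6 noncoding RNAs stood lower without overlap and 10 of the 11 coding genes overlapped, and limma called none of them. HOXA5 was at 1.03 and 1.43 TPM in sh-PURB, against 2.85 and 3.24 TPM in sh-NC, or 40.4% of the control mean. HOXA5, a factor of the middle of the cluster that patterns the neck and lung, was the only coding HOXA gene whose groups did not overlap on the lower side. Its difference was -0.86 on the log2(TPM + 1) scale (SE 0.20, limma adjusted p = 0.154). The locus of HOXA5 (chromosome 7, 27141052 to 27143668, minus strand, GRCh38) shares no exon base with another annotated gene. HOXA-AS2 was at 2.18 and 2.60 TPM in sh-PURB, against 4.22 and 6.68 TPM in sh-NC, or 43.9% of the control mean. Both sh-PURB libraries lay well below both controls, and the controls themselves differed by more than the sh-PURB libraries did. The difference of HOXA-AS2, which runs antisense through HOXA3 and HOXA4 (27107777 to 27134302, plus strand), was -0.90 (SE 0.24, limma adjusted p = 0.193). With protein-coding genes and long noncoding RNAs alone, where limma called 3.37% of genes, its adjusted p was 0.0682 for HOXA5 and 0.0838 for HOXA-AS2, still above the threshold.

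The groups overlapped for the genes around these RNAs. HOXA3, a patterning gene of the pharyngeal arches on the strand opposite HOXA-AS2, was at 0.459 and 1.05 TPM in sh-PURB and 0.762 and 1.57 TPM in sh-NC, with overlapping groups (difference -0.30, SE 0.32, limma adjusted p = 0.715). Its difference ran from -0.57 to -0.03 when 1 library was left out. HOXA4 was at 0.519 and 0.817 TPM in sh-PURB and 0.558 and 1.28 TPM in sh-NC, too low to be tested. HOXA7 was at 0.315 and 0.894 TPM in sh-PURB and 0.627 and 0.496 TPM in sh-NC, and 62.5% of its exon bases are shared with HOXA-AS3 on the opposite strand. HOXA6, the neighbour of HOXA5 towards the high numbers, was at 1.37 and 1.60 TPM in sh-PURB and 1.57 and 1.61 TPM in sh-NC. HOXA-AS2 shares 374 exon bases with HOXA3 and 254 with HOXA4 on the opposite strand. The sources used here do not say whether counting used the strand, so reads from those bases cannot be assigned, but they are 11.9% of its exon bases.

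Of the other 5 noncoding RNAs of HOXA, 4 were lower without overlap and HOXA-AS3 overlapped. HOTAIRM1, which lies at the low-numbered end of the cluster and is known from myeloid differentiation (27095647 to 27100265, plus strand), was at 8.46 and 7.41 TPM in sh-PURB and 9.71 and 9.08 TPM in sh-NC. The groups did not overlap, with a difference of -0.22 (SE 0.14, limma adjusted p = 0.524). HOXA11-AS was at 1.22 and 1.39 TPM in sh-PURB and 1.87 and 2.00 TPM in sh-NC, also without overlap (difference -0.35, SE 0.19, limma adjusted p = 0.459). HOTTIP, described as a partner of WDR5 that keeps the high-numbered HOXA genes active, was at 0.104 and 0.203 TPM in sh-PURB and 0.287 and 0.735 TPM in sh-NC, too low to be tested. HOXA10-AS and HOXA-AS3 were at or below 0.0546 TPM in every library. Short RNA annotations on the same strand share 43.2% of the exon bases of HOTAIRM1, 31.9% of HOXA11-AS and 18.4% of HOTTIP. The split of reads between those RNAs and the short entries is uncertain. With any signal counted, 5 of the 6 noncoding HOXA RNAs and 1 of the 11 coding genes were lower without overlap, beside 20.9% of long noncoding RNAs and 28.2% of protein-coding genes in the whole table. The noncoding HOXA RNAs summed to 12 and 11.7 TPM in sh-PURB and to 16.1 and 18.6 TPM in sh-NC, while the coding HOXA genes summed to 15.4 and 18.5 TPM in sh-PURB and to 17.0 and 22.5 TPM in sh-NC. The split into coding and noncoding sums was made after the values were seen, and the difference between the kinds was not tested.

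HOXA11 and HOXA11-AS have overlapping promoter windows in RefSeq. HOXA11, a gene of the forearm and the uterus, was at 3.58 and 3.39 TPM in sh-PURB and 2.55 and 3.58 TPM in sh-NC, with overlapping groups and a difference of 0.15 (SE 0.20, limma adjusted p = 0.772). That difference was -0.03 without sh-NC replicate 1, so its sign rested on 1 control library. The pair shares 717 exon bases on opposite strands, 31.1% of the exon bases of HOXA11. At the high-numbered end of the cluster, HOXA13, a gene of the digits, stayed at or below 0.474 TPM. HOXA9, which drives self-renewal in leukaemia, was at 4.65 and 4.26 TPM in sh-PURB and 4.35 and 4.95 TPM in sh-NC. HOXA10 was at 1.70 and 3.01 TPM in sh-PURB and 2.17 and 3.13 TPM in sh-NC. The groups overlapped for both genes.

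**Figure D4:**
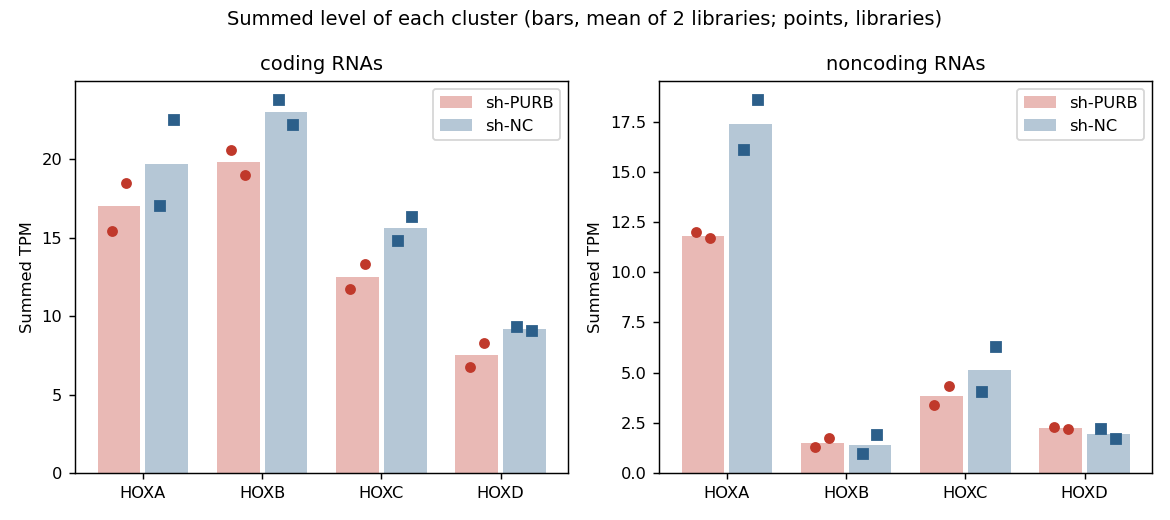
Summed TPM of the coding (left) and noncoding (right) RNAs of each cluster, sh-PURB in red and sh-NC in blue; bars are means of 2 libraries and points the libraries. The noncoding HOXA sum is 11.8 ± 0.213 TPM in sh-PURB and 17.4 ± 1.73 TPM in sh-NC (SD), without overlap.

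In the HOXB cluster HOXB2, HOXB3, HOXB5, HOXB7 and HOXB13 were lower without overlap and HOXB8, HOXB9 and HOXB-AS3 were higher. None passed the limma threshold, and HOXB5, HOXB8 and HOXB-AS3 were too low to be tested. That is 5 of 14 lower (35.7%) and 3 of 14 higher, beside 24.1% and 15.3% of all genes with any signal. HOXB13, the last HOXB gene and a marker of prostate and rectum (chromosome 17, 48724763 to 48729178, minus strand), was at 1.59 and 1.92 TPM in sh-PURB, against 2.53 and 2.49 TPM in sh-NC (difference -0.35, SE 0.18, limma adjusted p = 0.437). HOXB2, a hindbrain gene, was at 2.03 and 1.77 TPM in sh-PURB, against 3.01 and 2.45 TPM in sh-NC (difference -0.36, SE 0.19, limma adjusted p = 0.442). Its neighbour HOXB3 was at 2.20 and 2.57 TPM in sh-PURB, against 2.88 and 3.79 TPM in sh-NC (difference -0.35, SE 0.20, limma adjusted p = 0.469). None of these groups overlapped, and the sh-PURB means were 70.0%, 69.6% and 71.6% of the control means.

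The middle of the cluster held its highest genes. HOXB7, a homeobox gene often raised in tumours, was at 5.00 and 5.16 TPM in sh-PURB and 5.79 and 5.67 TPM in sh-NC, a small gap without overlap (difference -0.15, SE 0.14, limma adjusted p = 0.680). HOXB6 was at 4.67 and 3.51 TPM in sh-PURB and 6.11 and 3.78 TPM in sh-NC, with overlapping groups, and its difference of -0.21 became 0.08 without sh-NC replicate 1. HOXB9 was at 4.10 and 3.60 TPM in sh-PURB and 3.01 and 3.47 TPM in sh-NC, higher without overlap (difference 0.20, SE 0.17, limma adjusted p = 0.648). The antisense RNA HOXB-AS1 was at 1.18 and 1.25 TPM in sh-PURB and 0.918 and 1.48 TPM in sh-NC. It shares 374 exon bases with HOXB3 and 87 with HOXB2, yet its sh-PURB values lay between the control values. HOXB-AS3 was at 0.112 and 0.297 TPM in sh-PURB and 0 and 0.0971 TPM in sh-NC, and HOXB5 was at 0.138 and 0.141 TPM in sh-PURB and 0.174 and 0.282 TPM in sh-NC. HOXB4, HOXB5, HOXB-AS2, HOXB-AS3 and HOXB-AS4 stayed at or below 0.297 TPM in every library.

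HOTAIR had the widest gap in the HOXC cluster. It was at 1.08 and 1.72 TPM in sh-PURB, against 2.07 and 3.78 TPM in sh-NC, so the groups did not overlap but the upper sh-PURB library came close to the lower control. The difference was -0.69 (SE 0.30, limma adjusted p = 0.363), and p was 0.33 in an exact two-sided permutation test, which cannot go lower with 2 libraries a group. Leaving out sh-NC replicate 2 gave -0.37 and leaving out sh-NC replicate 1 gave -1.01, so the size rested on which control was used. HOTAIR (chromosome 12, 53962308 to 53974956, minus strand) overlaps the span of HOXC11 but shares 0 exon bases with it, and 166 of its 2602 exon bases with short RNA annotations on the other strand. HOXC11, a hindlimb gene that starts inside the HOTAIR span, was at 1.44 and 1.55 TPM in sh-PURB and 1.68 and 1.34 TPM in sh-NC. Its difference was -0.01 and its libraries overlapped, and it turned positive under each of the 4 scalings.

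The coding genes of HOXC lay on the lower side to a smaller extent. HOXC9, a gene of the thoracic region (53994895 to 54003337, plus strand), was at 2.94 and 2.87 TPM in sh-PURB, against 3.5 and 4.57 TPM in sh-NC (difference -0.36, SE 0.18, limma adjusted p = 0.430). HOXC10, a gene of the lumbar region and hindlimb, was at 2.10 and 2.20 TPM in sh-PURB, against 2.86 and 2.66 TPM in sh-NC (difference -0.26, SE 0.17, limma adjusted p = 0.546). HOXC4 was at 0.853 and 1.14 TPM in sh-PURB, against 1.25 and 1.81 TPM in sh-NC (difference -0.34, SE 0.23, limma adjusted p = 0.563). The groups of these 3 genes did not overlap. HOXC13, a gene of hair and nails, was at 1.66 and 1.89 TPM in sh-PURB and 1.91 and 2.04 TPM in sh-NC, a gap of -0.10 with SE 0.19. HOXC6 was at 2.09 and 2.82 TPM in sh-PURB and 2.56 and 2.93 TPM in sh-NC, with overlapping groups. HOXC4, HOXC5 and HOXC6 share exons on 1 strand (17.8%, 43.4% and 15.7% of their exon bases are shared with other genes), so their split by the estimate is uncertain.

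The antisense RNAs of HOXC did not follow HOTAIR. HOXC-AS1 was at 1.04 and 1.33 TPM in sh-PURB and 0.782 and 1.13 TPM in sh-NC, with a difference of 0.16 (SE 0.23, limma adjusted p = 0.799). HOXC-AS3 was at 0.875 and 0.485 TPM in sh-PURB and 0.543 and 0.791 TPM in sh-NC, and HOXC13-AS at 0.343 and 0.654 TPM in sh-PURB and 0.552 and 0.509 TPM in sh-NC. All 3 overlapped between the groups. HOXC8, a low gene, was at 0.654 and 0.615 TPM in sh-PURB and 0.987 and 0.704 TPM in sh-NC without overlap, and HOXC5, HOXC12 and HOXC-AS2 stayed at or below 0.189 TPM.

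The HOXD cluster, the distant target described for HOTAIR in fibroblasts, held genes on both sides. Of its 11 RNAs with any signal, 4 were lower without overlap (36.4%), beside 24.1% of all genes with any signal. HOXD-AS2 and 2 coding genes were higher without overlap, beside 15.3% of all genes with any signal. The highest HOXD gene, HOXD8 (chromosome 2, 176129694 to 176132695, plus strand), was at 4.46 and 5.27 TPM in sh-PURB, against 5.83 and 5.46 TPM in sh-NC (difference -0.18, SE 0.16, limma adjusted p = 0.645). HOXD9 was at 1.21 and 1.33 TPM in sh-PURB, against 1.36 and 1.46 TPM in sh-NC (difference -0.09, or 0.01 after quantile normalization). The antisense RNA HOXD-AS2, which spans HOXD8 and HOXD9, was at 2.01 and 1.78 TPM in sh-PURB, against 1.66 and 1.38 TPM in sh-NC, higher without overlap (difference 0.20, SE 0.20, limma adjusted p = 0.691). None of the 3 gaps was much larger than its standard error (0.20 for HOXD9).

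Below the filter, 4 HOXD genes separated the groups in both directions. They are singled out after their values were seen. HOXD10, a limb patterning gene, was at 0.0905 and 0.169 TPM in sh-PURB, against 0.432 and 0.895 TPM in sh-NC. HOXD11, its neighbour and partner in the limb, was at 0.0837 and 0.337 TPM in sh-PURB, against 0.866 and 0.534 TPM in sh-NC. The 2 genes share 452 exon bases on 1 strand, so they are not separate observations. In a fit with no filter their differences were -0.54 (SE 0.17, limma adjusted p = 0.393) and -0.49 (SE 0.17, limma adjusted p = 0.44). HOXD3 was at 0.681 and 0.660 TPM in sh-PURB, against 0.549 and 0.559 TPM in sh-NC, and HOXD4 at 0.110 and 0.352 TPM in sh-PURB, against 0.0960 and 0 TPM in sh-NC. Those 2 stood higher without overlap, and both share most exon bases with another entry on the same strand (62.2% of HOXD3 and 80.5% of HOXD4). HAGLR, the antisense RNA near HOXD1, was at 0.266 and 0.395 TPM in sh-PURB and 0.547 and 0.330 TPM in sh-NC.

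The genes that act on HOX clusters or with HOX proteins were read as lists, and limma called 0 genes in each. At an unadjusted p under 0.05, 7 of 28 Polycomb genes, 1 of 5 LSD1 complex genes, 2 of 5 retinoic acid genes, 0 of 9 TALE genes and 0 of 15 Trithorax genes were lower, beside 9.53% of all tested genes. Of the TALE cofactors, which bind DNA beside HOX proteins, 8 of 9 tested lay below 0 with a median of -0.16, beside 58.4% of all tested genes below 0. MEIS3 was at 10.3 and 14.3 TPM in sh-PURB, against 16.4 and 15.5 TPM in sh-NC, and PBX2 at 8.75 and 10.6 TPM in sh-PURB, against 11.0 and 13.7 TPM in sh-NC. The TALE median ran from -0.40 without sh-PURB replicate 2 to -0.03 without sh-PURB replicate 1, so it rested on single libraries.

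Polycomb genes lay mostly below 0 and Trithorax genes on both sides of it; the difference between the lists was not tested. Of 28 Polycomb genes 23 lay below 0 (median -0.18), and 15 were lower and 1 higher without overlap. Of all tested genes 58.4% lay below 0, and 29.3% were lower and 18.6% higher without overlap. PHC2, a PRC1 subunit, was at 16.4 and 14.4 TPM in sh-PURB, against 21.9 and 22.0 TPM in sh-NC (limma adjusted p = 0.177). MTF2, a PRC2 partner, was at 9.71 and 9.49 TPM in sh-PURB, against 13.2 and 14.1 TPM in sh-NC (limma adjusted p = 0.188). With TPM recomputed 18 of the 28 lay below 0, and the median was -0.06. Of the 5 LSD1 complex genes 4 lay below 0 (median -0.17) and 3 were lower without overlap, beside 58.4% and 29.3% of all tested genes. The deacetylase HDAC1 was at 24.1 and 24.8 TPM in sh-PURB, against 30.6 and 32.8 TPM in sh-NC (limma adjusted p = 0.229). The corepressor RCOR1 was at 1.17 and 1.84 TPM in sh-PURB, against 2.87 and 2.50 TPM in sh-NC (limma adjusted p = 0.330). KDM1A was also lower without overlap. REST (difference -0.08) and HDAC2 overlapped, and HDAC2 lay above 0 (difference 0.04). The 15 Trithorax and COMPASS genes split into 8 below and 7 above 0 with a median of -0.01, which turned to between 0.02 and 0.12 under the 4 scalings. Without sh-NC replicate 1 it was -0.24, the same as the Polycomb median there, and without sh-NC replicate 2 it was 0.22. PSIP1, a chromatin reader that tethers MLL complexes, was at 28.4 and 33.2 TPM in sh-PURB, against 36.6 and 43.1 TPM in sh-NC (limma adjusted p = 0.329). WDR5, named for its tie to HOTTIP after its values were seen, was at 11.9 and 10.2 TPM in sh-PURB and 9.27 and 9.76 TPM in sh-NC.

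Of the 15 genes of the retinoic acid and CDX list, 5 were tested. All 5 lay below 0 (median -0.38), beside 58.4% of all tested genes, and limma called none of them. The groups did not overlap for 3 of the 5, the receptors RARG and RXRA and the retinoic acid degrading enzyme CYP26B1, while the receptors RARA and RXRB overlapped. Of all tested genes 29.3% were lower without overlap. Among the list genes too low to be tested, ALDH1A2 (0.648 and 0.693 TPM in sh-PURB, 0.604 and 0.274 TPM in sh-NC) and ALDH1A3 were higher without overlap. ALDH1A1 was lower without overlap (0.0448 and 0.0943 TPM in sh-PURB, 0.354 and 1.72 TPM in sh-NC), and the rest overlapped or were at 0. RARG, a retinoic acid receptor, was at 5.31 and 7.54 TPM in sh-PURB, against 12.3 and 11.3 TPM in sh-NC (difference -0.80, SE 0.19, limma adjusted p = 0.160). Its dimer partner RXRA was at 4.28 and 5.88 TPM in sh-PURB, against 7.14 and 8.87 TPM in sh-NC (difference -0.57, SE 0.20, limma adjusted p = 0.286). Without sh-PURB replicate 1, 3 of the 5 lay below 0. CDX1 and CDX4 were listed at 0 in every library, and CDX2 was at 0.324 and 0.431 TPM in sh-PURB and 0.388 and 0.686 TPM in sh-NC.

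**Figure D5:**
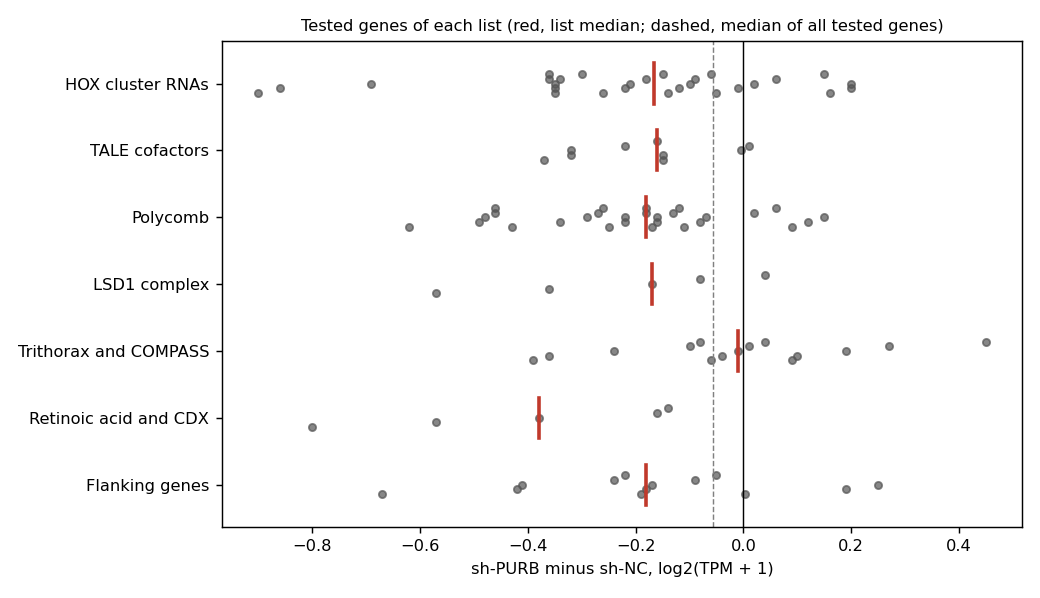
Difference of sh-PURB minus sh-NC on the log2(TPM + 1) scale for each tested gene of the HOX clusters and of the lists of cofactors, regulators and flanking genes; red marks are list medians and the dashed line the median of all tested genes (-0.06). The HOX, TALE, Polycomb, LSD1 and flanking medians lie between -0.18 and -0.16, and the Trithorax median is -0.01 (positive under the 4 other scalings, -0.24 without sh-NC replicate 1 and 0.22 without sh-NC replicate 2).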

How the data were processed

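The deposited files hold TPM per gene symbol for 2 sh-PURB and 2 sh-NC libraries, and the authors' all-samples table equals the 4 single tables. Tools listed, per the submitters' processing notes, were kallisto 0.44.0, bcl2fastq 2.19, DESeq2 and sleuth, beside 2 builds, GRCh38 and GRCm38, whose roles are not stated. The strand setting and annotation are not given in the sources used here. A row with no name, 0.921% to 1.66% of a library, was left out.

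Genes with at least 1 TPM in at least 2 libraries (14269 of 39519) were compared as log2(TPM + 1) in limma 3.58.1 (R 4.3.3) with an intensity trend, without a replicate block, and adjusted by Benjamini-Hochberg over all of them at 0.05. The log2 scale understates the change of low genes. One HOX gene counts in the totals but is not reported here by name. Steps were tested on simulated data. The HOX members and the lists were chosen with earlier results of these data known. The named genes were HOTAIR, HOTAIRM1, HOTTIP, HAGLR and HAGLROS, members averaging at least 1 TPM, the 2 of smallest p per cluster and up to 4 of smallest p per list; others are added after their values were seen. Positions came from GENCODE 29 (GRCh38) and sequences from RefSeq (GRCh38.p14). Figures used Python 3.11.15 and matplotlib 3.10.9. Alternatives were other pseudocounts (0.1, 0.5), filters, scalings, variance models, a replicate block and leaving out each library.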

Additional observations from a re-analysis of the deposited data

How the results depend on the processing

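Under 15 alternatives limma called 0 of the HOX RNAs, and HOTAIR stayed below 0 and short of the threshold in each of the 14 that could test it. Among those, no filter, the other variance models and the replicate block could change its p-value but not its difference. It was under the filter at 5 TPM, which left 3 HOX RNAs. HOTAIR ran from -1.01 to -0.37 over the fits that left out 1 library and had adjusted p-values of 0.136 to 0.828 over all alternatives in limma. The calls over all genes ran from 0 to 429 beside 41, so a HOX count of 0 was reached at very different stringency. With a pseudocount of 0.1, no filter or no intensity trend, limma called 0 genes of any kind. A HOX count of 0, HOTAIR included, was fixed in advance there. The fits that left out 1 library had a single library in 1 group and could not decide it either. The HOX median of -0.17 moved to -0.08 with no filter (56 RNAs), -0.08 after median-ratio rescaling, -0.09 after quantile normalization and -0.05 with TPM recomputed, and ran from -0.22 to -0.09 over the fits that left out 1 library.

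Direction was kept in 357 of 381 pairs of gene and alternative, and 17 of the 27 RNAs followed never turned. HOXA5 and HOXA-AS2 were among them (HOXA5 from -0.99 to -0.73, HOXA-AS2 from -1.18 to -0.63 over the left-out libraries). The other filters, the other variance models and the replicate block leave each difference as it was by construction. Pairs with those alternatives could not turn, so the share kept overstates how far direction was tried. For the 10 RNAs that turned, the cause was not tested. After median-ratio rescaling, HOXA6 was at 0.0033, HOXA9 at 0.04 and HOXC11 at 0.06. After quantile normalization, HOXA6 was at 0.04, HOXA9 at 0.01, HOXC11 at 0.09, HOXC13 at 0.02 and HOXD9 at 0.01. With TPM recomputed, HOXA6 was at 0.04, HOXA9 at 0.09 and HOXC11 at 0.11, and HOXC11 was at 0.03 with protein-coding genes and long noncoding RNAs alone. Over the left-out libraries, HOXA6 ran from -0.13 to 0.01, HOXA9 from -0.13 to 0.03, HOXA10 from -0.42 to 0.15, HOXA11 from -0.03 to 0.34, HOXB-AS1 from -0.17 to 0.21, HOXB6 from -0.49 to 0.08, HOXC6 from -0.27 to 0.03 and HOXC11 from -0.11 to 0.09.

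The replicate numbers are shared by both groups, but nothing states that they pair the libraries. With the replicate block HOTAIR was at -0.69 (limma adjusted p = 0.136), HOXA5 and HOXA-AS2 had adjusted p-values of 0.0955, and 118 genes were called in place of 41. Deviations of the same-numbered libraries from their group means correlated at 0.193 across 14269 genes.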

Other observations

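Of 13 tested genes that flank the clusters, 10 lay below 0 with a median of -0.18, beside -0.17 for the HOX RNAs, and 8 of 13 with a median of -0.03 once TPM was recomputed; 6 were lower and 2 higher without overlap, with 0 called by limma and 2 lower at an unadjusted p under 0.05. Of all tested genes 58.4% lay below 0, 29.3% were lower and 18.6% higher without overlap, and 9.53% were lower at that p. HIBADH, a mitochondrial enzyme of valine breakdown beyond the HOXA cluster, was at 19.9 and 25.7 TPM in sh-PURB, against 34.0 and 39.1 TPM in sh-NC (limma adjusted p = 0.168). LNPK, an endoplasmic reticulum protein beside HOXD, was at 7.75 and 7.85 TPM in sh-PURB, against 10.6 and 10.8 TPM in sh-NC (limma adjusted p = 0.235). ATP5MC3, a subunit of ATP synthase farther from HOXD, was at 95.8 and 82.5 TPM in sh-PURB, against 80.1 and 69.3 TPM in sh-NC (limma adjusted p = 0.429). EVX1, the homeobox gene that ends the HOXA cluster, stayed at or below 0.0701 TPM, and EVX2 beside HOXD was listed at 0.

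Within each group the second library was the higher one for most HOX RNAs. Replicate 2 exceeded replicate 1 for 20 of the 28 tested HOX RNAs in sh-PURB (71.4%, beside 61.0% of all tested genes) and for 19 of them in sh-NC (67.9%, beside 60.5%).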
